A study of Mus musculus with 6 samples.

Results

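The 10 genes described here make up the oxygen-sensing core of the hypoxia-inducible factor (HIF) pathway. They are the prolyl hydroxylase genes Egln1, Egln2 and Egln3, the asparaginyl hydroxylase gene Hif1an (FIH), the ubiquitin ligase subunit gene Vhl, the HIF subunit genes Hif1a, Epas1, Hif3a and Arnt, and the transcriptional regulator gene Cited2. They were chosen by name, and each was read from the array feature that carried its symbol and no other, so that 10 of 30176 named genes were members and all 10 were measured. The cells were primary microglia, phagocytes that reside in the brain, cultured from newborn CD1 pups (an outbred strain, 5 mice pooled). They were kept for 6 h at 1% oxygen (hypoxia) or for 6 h at 21% oxygen (normoxia), and the labels name no other agent and no mutation. Cultures 3, 4 and 6 of the labels were each split over both conditions, with 1 array apiece, hence 3 arrays per group and 6 in all.

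HIF is a dimer of an oxygen-labile alpha subunit (HIF-1α, HIF-2α or HIF-3α, from Hif1a, Epas1 and Hif3a) and the stable beta subunit ARNT. With oxygen present, the prolyl hydroxylases PHD2, PHD1 and PHD3 (from Egln1, Egln2 and Egln3) hydroxylate the alpha subunits, which VHL then binds and marks for degradation, while FIH hydroxylates an asparagine and so blocks the contact with the coactivators p300 and CBP. When oxygen falls, the alpha subunits persist at the protein level and switch on genes that carry the hypoxia response element. In many cell types some of the hydroxylase genes are themselves targets of HIF, a negative feedback on the pathway.

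The letters before the start sites of the prolyl hydroxylase genes are shown because these paralogs share an enzymatic role and differed in their response. Each run holds the 250 bases upstream of a RefSeq start site on GRCm38.p6, read 5′ to 3′ on the gene's strand, which is the minus strand for all of them. Capitals mark the core letters of the hypoxia response element, searched as ACGTG and GCGTG on both strands (CACGT and CACGC on the opposite one). The palindrome CACGTG counts on both strands. Egln2 has a second listed start site, whose run is not printed.
Egln1, chr8:124949255-124949504: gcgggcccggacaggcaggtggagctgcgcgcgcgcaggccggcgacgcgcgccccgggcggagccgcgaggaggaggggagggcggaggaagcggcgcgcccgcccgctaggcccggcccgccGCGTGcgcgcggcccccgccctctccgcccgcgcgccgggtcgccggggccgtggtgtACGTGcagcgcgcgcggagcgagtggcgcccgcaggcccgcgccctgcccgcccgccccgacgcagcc
Egln2, chr7:27166803-27167052: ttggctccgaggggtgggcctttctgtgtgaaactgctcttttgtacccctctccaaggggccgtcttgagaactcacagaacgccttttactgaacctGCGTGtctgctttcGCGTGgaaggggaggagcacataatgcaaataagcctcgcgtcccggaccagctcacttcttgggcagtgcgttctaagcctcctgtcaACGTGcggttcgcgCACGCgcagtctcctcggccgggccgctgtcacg
Egln3, chr12:54203875-54204124: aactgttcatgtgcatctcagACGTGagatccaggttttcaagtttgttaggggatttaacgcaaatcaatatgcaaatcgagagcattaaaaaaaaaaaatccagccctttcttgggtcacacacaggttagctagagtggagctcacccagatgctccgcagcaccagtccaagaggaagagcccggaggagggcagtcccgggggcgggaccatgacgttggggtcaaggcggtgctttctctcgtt
The Egln1 run held 2 matches, at -126 and -68 bases from the start, and the Egln3 run 1 match, at -229. The Egln2 run held 4 matches, the nearest at -34. The runs also differed in base composition, with 86% G and C for Egln1, 59.2% for Egln2 and 50.8% for Egln3. Of the 10 listed promoters of 9 members, 8 held a match, and those of Vhl and Hif1an held 0. Epas1 was not matched in the sequence table. Among all 32851 promoters of the same length in that table, 38.6% held at least 1 match and 16.7% held 2 or more. A match is a run of letters and no evidence of binding.

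**Figure D1:**
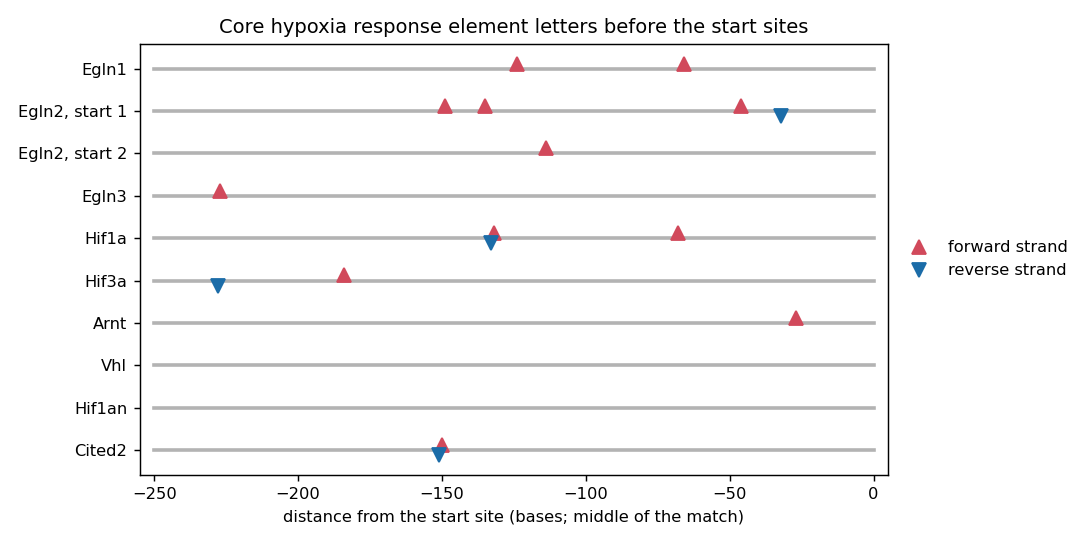
Position of the core letters of the hypoxia response element in the 250 bases before each listed start site of 9 genes, in bases from the start (0); red triangles are matches on the gene's strand and blue triangles matches on the opposite strand. Egln1 holds 2 matches, Egln3 holds 1, the first Egln2 promoter holds 4, and Vhl and Hif1an hold 0.

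After 6 h at 1% oxygen, Egln3 and Egln1 rose in the microglial cultures by 9.86-fold and 3.38-fold. The third prolyl hydroxylase gene, Egln2, had a fold of 1.04 and did not pass the test, nor did the genes for the HIF subunits, VHL, FIH and CITED2. Thus 2 of 10 members were called and 8 were not, at an adjusted p under 0.05 from limma with the culture as a block. Over all genes tested in the same fit, 0.537% were called, of which 127 were higher and 35 lower. Without the block these were 63 (0.209%) and 5 (0.0166%), and the same 2 members were called. The numbers of higher and lower genes were 17 and 1 without culture 3, 135 and 94 without culture 4, and 121 and 22 without culture 6. The arrays measured whole cultures, in which fewer cells of a type and less RNA per cell cannot be told apart.

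Egln3 encodes PHD3, a hydroxylase that has been described in many cell types as strongly inducible. Its gene is found on chromosome 12 of GRCm38.p6 (54178981 to 54203874). The log2 intensity of Egln3 was 10.79, 11.45 and 10.75 at 1% oxygen in cultures 3, 4 and 6, against 7.43, 8.12 and 7.53 at 21% oxygen. The groups did not overlap, and culture 4 was the highest in both conditions. Means were 10.99 ± 0.39 at 1% oxygen and 7.69 ± 0.37 at 21% oxygen (SD, n = 3 cultures each). The cultures differed in level far more than in response: the rise within a culture was 3.36, 3.33 and 3.22. The log2 difference was 3.30 (standard error 0.07, 95% interval 3.14 to 3.46, adjusted p = 4.36e-05 from limma). It ranked the 1st of 30176 genes by log2 difference and also by p. Without the block its standard error was 0.23 (adjusted p = 0.00117 from limma).

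Egln1 encodes PHD2, regarded as the main oxygen sensor that sets HIF-1α levels in normoxia, and is found on chromosome 8 (124908587 to 124949254). In cultures 3, 4 and 6 the log2 intensity of Egln1 was 10.33, 10.45 and 10.34 at 1% oxygen, against 8.59, 8.61 and 8.65 at 21% oxygen. The groups did not overlap, and the cultures were closer to each other than for Egln3, with means of 10.38 ± 0.07 at 1% oxygen and 8.62 ± 0.03 at 21% oxygen (SD, n = 3 each). The log2 difference was 1.76 (standard error 0.07, 95% interval 1.60 to 1.92, adjusted p = 0.000482 from limma), the 10th by size.

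Egln2 encodes PHD1, a mostly nuclear enzyme, and is found on chromosome 7 (27158658 to 27166802). At 1% oxygen Egln2 had a log2 intensity of 8.91, 8.90 and 9.14, against 8.93, 8.90 and 8.96 at 21% oxygen. Only culture 6 was higher at 1% oxygen, by 0.18, and the groups overlapped. The log2 difference was 0.06 with a 95% interval from -0.12 to 0.23 (adjusted p = 0.703 from limma), and without culture 6 its sign turned (-0.0095). The difference between the paralogs was itself examined within cultures. The rise of Egln3 exceeded that of Egln1 by 1.61, 1.48 and 1.53 in cultures 3, 4 and 6, a mean of 1.54 ± 0.07 (SD, n = 3). The rise of Egln1 exceeded the change of Egln2 by 1.70 ± 0.18 (SD, n = 3). The rise of Egln3 exceeded the change of Egln2 by 3.25 ± 0.18 (SD, n = 3). For each of these 3 pairs the exact two-sided sign-flip test gave p = 0.25 (0.25 after Benjamini-Hochberg adjustment), the smallest that 3 cultures allow, with all 3 cultures in the same direction.

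**Figure D2:**
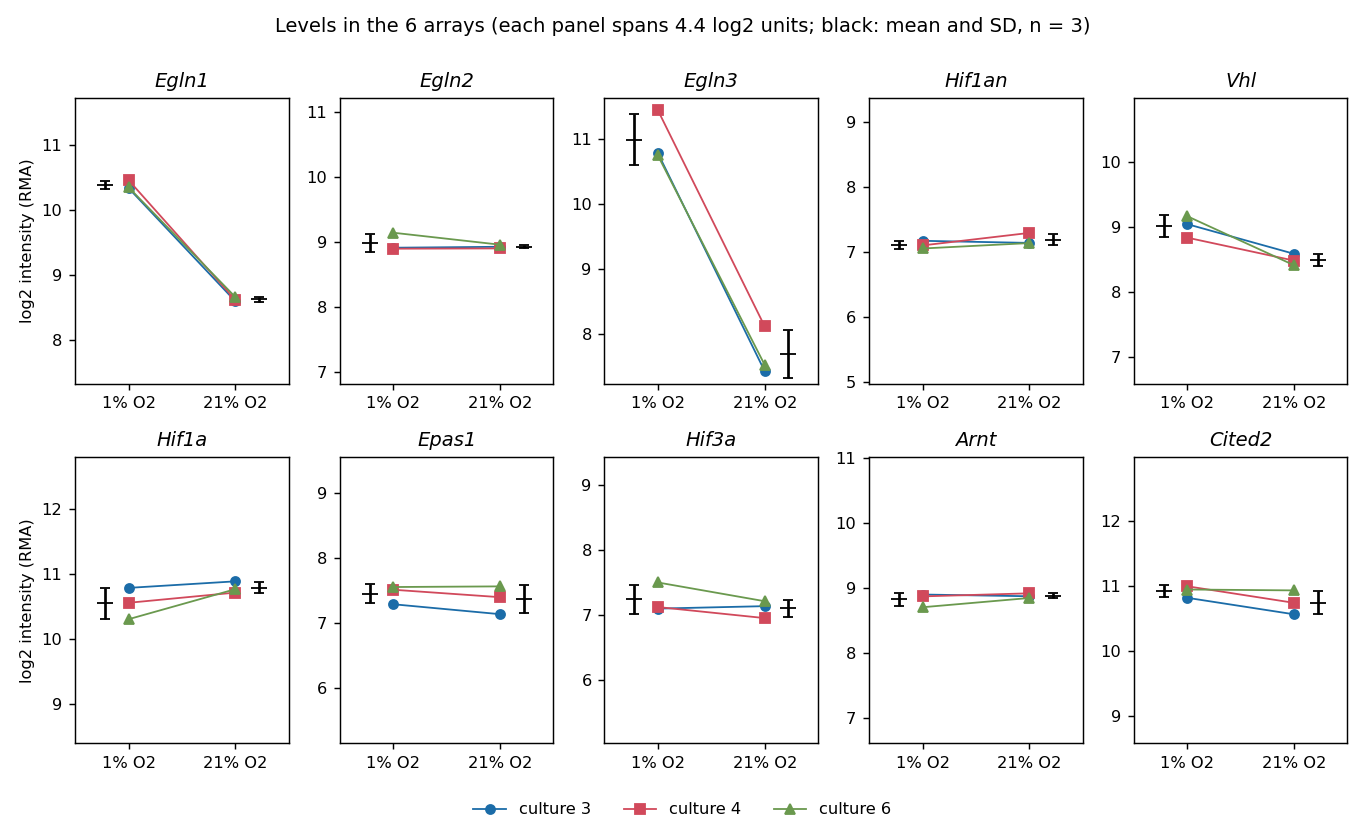
Log2 intensity (vertical axis) of each gene in the 3 arrays at 1% oxygen (left) and the 3 at 21% oxygen (right), with a line joining the arrays of a culture and the mean ± SD in black; each panel spans the same number of log2 units. The lines of Egln3 and Egln1 are steep and parallel, those of Vhl are shallow, and the arrays of the other 7 genes overlap between conditions.

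Hif1an and Vhl act beside the prolyl hydroxylases. Vhl encodes the subunit of the ubiquitin ligase that recognises hydroxylated HIF, and is found on chromosome 6 (113623994 to 113631634). Vhl had a log2 intensity of 9.05, 8.84 and 9.17 at 1% oxygen in cultures 3, 4 and 6, against 8.59, 8.49 and 8.41 at 21% oxygen. Each array at 1% oxygen was above each array at 21% oxygen, and the differences within cultures were 0.46, 0.35 and 0.75. The log2 difference of Vhl was 0.52, a fold of 1.44 (standard error 0.09, 95% interval 0.30 to 0.74), with an adjusted p = 0.0799 from limma, so that it was not called. It passed without culture 4 (0.61, adjusted p = 0.0352 from limma) and with a trended, robust variance (adjusted p = 0.0496 from limma). Without culture 4 the adjusted p of Vhl fell although its standard error rose to 0.11, so the pass does not show a more even response. Its adjusted p from limma was 0.168 without the block and up to 0.215 over all alternatives. Together with Egln1 and Egln3 it made 3 of 10 members whose groups did not overlap, all of them higher at 1% oxygen. Of all genes, 8.24% were higher and 7.58% lower without overlap.

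Hif1an, on chromosome 19 from 44562854 to 44576274, encodes FIH. Hif1an had a log2 intensity of 7.18, 7.11 and 7.06 at 1% oxygen, against 7.14, 7.30 and 7.14 at 21% oxygen. The cultures did not share a direction, and the log2 difference of -0.08 had a 95% interval from -0.25 to 0.09 (adjusted p = 0.578 from limma). The 4 hydroxylase genes thus held 2 that rose and 2, Egln2 and Hif1an, whose groups overlapped.

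The subunit genes of HIF did not pass the test in either direction. Hif1a, on chromosome 12 from 73901324 to 73947554, had a log2 intensity of 10.78, 10.55 and 10.30 at 1% oxygen in cultures 3, 4 and 6, against 10.88, 10.71 and 10.76 at 21% oxygen. It was the only member lower in all 3 cultures, by differences of -0.10, -0.16 and -0.46, though the groups overlapped. The log2 difference was -0.24, with a 95% interval from -0.45 to -0.03 that does not account for the number of genes (unadjusted p = 0.0317 and adjusted p = 0.251, both from limma). Without the block its unadjusted p from limma was 0.0857, and without culture 6 the difference was -0.13. It was -0.15 after cyclic loess and -0.14 after quantile normalization, but -0.26 after median centring, -0.31 without culture 3 and -0.28 without culture 4. The median log2 difference was -0.07 in the brightest of 4 equal groups of genes and 0.06 in the dimmest, and the part of brightness in the value of Hif1a was not tested. A further feature that carries the symbols of Hif1a and Gm15283 together was left out by the rule. Its log2 intensity was 6.90, 6.96 and 6.56 at 1% oxygen, against 6.48, 6.46 and 6.63 at 21% oxygen, with no shared direction.

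Epas1, which encodes HIF-2α and lies on chromosome 17 from 86753864 to 86833410, had a log2 intensity of 7.29, 7.51 and 7.55 at 1% oxygen, against 7.13, 7.40 and 7.56 at 21% oxygen. Culture 3 was the lowest in both conditions, and the cultures differed by more than the conditions did. The log2 difference of Epas1 was 0.09 (95% interval -0.08 to 0.25, adjusted p = 0.538 from limma). Hif3a, on chromosome 7 from 17030993 to 17062427, encodes HIF-3α, of which short splice forms inhibit the other alpha subunits. Its log2 intensity was 7.10, 7.12 and 7.50 at 1% oxygen, against 7.14, 6.95 and 7.21 at 21% oxygen, with culture 6 the highest in both conditions. The log2 difference of Hif3a was 0.14 (95% interval -0.06 to 0.34, adjusted p = 0.425 from limma), and its feature does not separate splice forms. Arnt, on chromosome 3 from 95434367 to 95497240, had a log2 intensity of 8.90, 8.87 and 8.70 at 1% oxygen, against 8.87, 8.92 and 8.85 at 21% oxygen. These levels lay within a narrow range, and the log2 difference was -0.05 (95% interval -0.22 to 0.11, adjusted p = 0.691 from limma).

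Cited2, on chromosome 10 from 17723228 to 17725674, encodes a protein that competes with HIF for p300 and CBP and is itself described as inducible by hypoxia. Its log2 intensity was 10.82, 11.00 and 10.95 at 1% oxygen, against 10.57, 10.74 and 10.94 at 21% oxygen. The difference was 0.25 in culture 3, 0.26 in culture 4 and 0.01 in culture 6, so that all cultures shared a direction while the groups overlapped. The log2 difference of 0.17 had a 95% interval from -0.01 to 0.36 (adjusted p = 0.314 from limma). Including Cited2, 6 members had an interval that held 0, and these intervals ran at their widest from a fold of 0.839 (Hif1an) to a fold of 1.28 (Cited2). Changes within these bounds could have been missed with 3 cultures. The bounds are no limit of detection, since Vhl, at a fold of 1.44, was not called either.

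**Figure D3:**
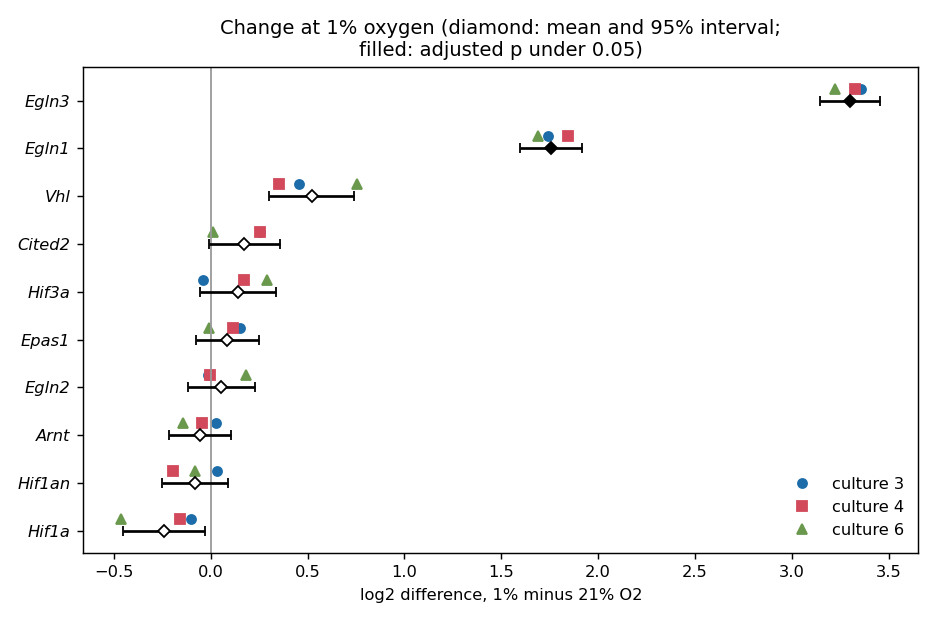
Log2 difference, 1% minus 21% oxygen (horizontal axis), for each gene: the diamond and bar give the mean and its 95% interval from limma with the culture as a block, filled where the adjusted p is under 0.05, and the coloured symbols above give the 3 cultures. Egln3 (3.30) and Egln1 (1.76) stand apart from Vhl (0.52), and the other 7 genes lie between -0.24 and 0.17.

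The prolyl hydroxylases and the other members were then set side by side, as a description. The mean log2 difference of the 3 prolyl hydroxylase genes was 1.69, 1.72 and 1.70 in cultures 3, 4 and 6, against 0.11, 0.07 and 0.05 for the 7 other members. The 4 subunit genes alone averaged 0.01, 0.02 and -0.08. The mean of the prolyl hydroxylases was carried by Egln3 and Egln1, since Egln2 lay among the other members. In each of the 3 cultures Egln3 had the largest difference of the 10 members, Egln1 the next and Vhl the third. Below these the order changed between cultures: Egln2 ranked 8, 7 and 5, and Hif3a ranked 9, 5 and 4, in cultures 3, 4 and 6. The median over all 10 members was 0.11, beside 0.03 over all genes tested.

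The rest of the pathway was read from 5 lists. Of 16 measured genes among 20 listed for the VHL complex, chaperones and other proteins of HIF turnover, 0 were called, with a median log2 difference of 0.00 and a range from -0.40 to 0.18. The lowest was Eloc, which encodes elongin C, a partner of VHL, at -0.40 (adjusted p = 0.0744 from limma); it was chosen after its values were seen. Of 8 genes for p300, CBP and other coactivators and CITED relatives, 0 were called (median -0.01), and of 12 relatives of the HIF subunits in the bHLH-PAS family, such as Arnt2 and Clock, 0 were called (median 0.05). Of 10 measured hydroxylases related to FIH or to the prolyl hydroxylases, 1 rose. This was Jmjd6, a JmjC-domain oxygenase, with a log2 intensity of 8.75, 8.68 and 8.96 at 1% oxygen, against 8.16, 8.06 and 8.15 at 21% oxygen. Its log2 difference was 0.67 (standard error 0.07, adjusted p = 0.0243 from limma), and it was not called without culture 3. P4htm, a transmembrane prolyl hydroxylase that can act on HIF in human cells, was likewise picked after its values were seen and had a log2 difference of 0.09 (adjusted p = 0.534 from limma).

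Target genes of HIF other than the members, listed with earlier results of these data known, moved far more often. Of 36 measured targets among 39 listed, 25 rose, 1 fell and 10 did not pass, with a median log2 difference of 0.92, whereas 0.421% of all genes were called higher and 0.116% lower. Without culture 3 the number called was 10. The largest rises were those of the mitophagy receptor gene Bnip3 (2.44), Ankrd37 (2.02), the adenylate kinase gene Ak4 (1.995), the glycogen synthase gene Gys1 (1.86), the peptide hormone gene Adm (1.86), the lactate transporter gene Slc16a3 (1.80), the oxidase gene Ero1a (1.77) and the glucose transporter gene Slc2a1 (1.72). Of these 8, Slc2a1 was the only one below Egln1 (1.76) and all were below Egln3 (3.30). The target that fell was the transferrin receptor gene Tfrc (-0.90), named after its value was seen.

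**Figure D4:**
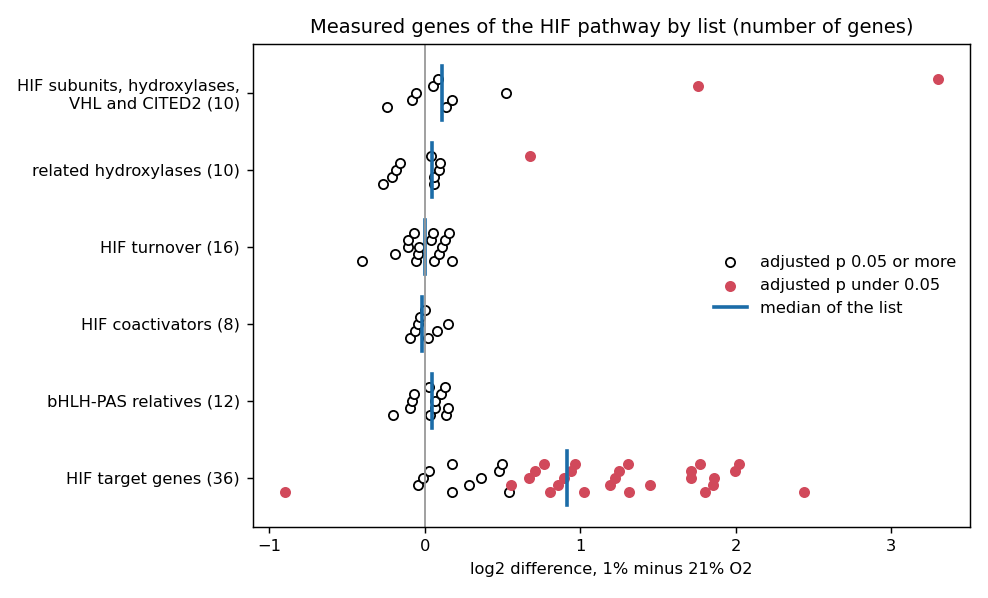
Log2 difference, 1% minus 21% oxygen (horizontal axis), of each measured gene in the 10-gene set and in 5 lists of the HIF pathway, with filled red points where the adjusted p from limma is under 0.05 and a blue line at each median. The lists of HIF turnover, coactivators and bHLH-PAS relatives hold 0 called genes, the list of related hydroxylases holds 1, and the list of HIF targets holds 26 with a median of 0.92.

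The response of Egln1 had close neighbours in size, and that of Egln3, the largest of all genes, did not. Likeness was measured as the Euclidean distance between the 3 differences within cultures, in log2 units, over all genes. The genes nearest to Egln1 were Ero1a at a distance of 0.08, Gys1 at 0.19, Prelid2 at 0.22, Slc2a1 at 0.24 and Slc16a3 at 0.25. Ero1a, an oxidase of the endoplasmic reticulum, differed by 1.81, 1.82 and 1.68 in cultures 3, 4 and 6, beside 1.74, 1.84 and 1.69 for Egln1. The genes nearest to Egln3 were the predicted gene Gm16439 at 1.41, Bnip3 at 1.495, Ankrd37 at 2.23, Ak4 at 2.27 and Gys1 at 2.498, all of which had smaller rises. These distances rest on 3 cultures and describe size and evenness of response only.

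Markers of the labelled cell type and of other cells were read in the same arrays. The microglial genes Csf1r and C1qa had log2 intensities of 12.71 to 12.81 and 12.79 to 12.85 at 1% oxygen, against 12.66 to 12.78 and 12.77 to 12.93 at 21% oxygen, and 0 of 11 measured microglial markers were called. Of these 11, 3 were above 0 (median -0.08), and P2ry12 (-0.22), Tyrobp (-0.18), Cx3cr1 (-0.15) and Aif1 (-0.12) were below 0 in all 3 cultures. Over all genes tested, 18030 of 30176 were above 0. Markers of fibroblasts and pericytes were higher at 1% oxygen for 11 of 12 genes (median 0.42), of which Col1a1 and Col3a1 were called (adjusted p = 0.0460 and 0.0453 from limma) and 0 were called without the block. Their summed linear intensity ranged from 4005 to 9525 at 1% oxygen and from 3141 to 7136 at 21% oxygen. Rgs5, at 5.22 to 5.37 over all arrays, lay under the low intensity limit (5.89, the median of all array values). Lum lay under it in cultures 4 and 6 (5.13 to 5.35). The other markers of the list lay above it in every array. Col1a1 was highest in culture 3 in both conditions (9.86 at 1% and 9.32 at 21% oxygen). So were Col1a2, Col3a1, Dcn, Lum, Pdgfrb, Acta2, Tagln and, by a narrow margin, Fn1. Cspg4 was highest in culture 4 in both conditions, as was Egln3, and Postn was highest in culture 6 in both. Rgs5 was highest in culture 6 at 1% oxygen and in culture 4 at 21% oxygen. Endothelial markers, of a cell type known for Epas1, were above 0 for 8 of 8 genes (median 0.11). Astrocyte markers were above 0 for 7 of 7 genes (median 0.13), oligodendrocyte lineage markers for 6 of 6 (median 0.07) and neuron markers for 5 of 6 (median 0.08). Of these 4 lists 0 genes were called. Slc1a2, Slc1a3, Gja1, S100b, Tek, Erg, Snap25, Syt1 and Map2 lay under the low intensity limit of 5.89 in every array, and the other markers above it. The dimmest of 4 equal groups of all genes had a median log2 difference of 0.06. The part of such cells in the changes of the members was not tested.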

How the data were processed

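Total RNA of 3 primary microglial cultures, each at 2 oxygen levels, was hybridised to 6 one-colour Affymetrix arrays. The authors deposited log2 intensities. Per the submitters' processing notes, Affymetrix Expression Console, RMA, limma and the build mm10 were used, without versions, and any filter is not given in the sources used here. RMA corrects background, equalises array distributions and summarises probes, which compresses the differences of dim features. No further normalization was applied. The median of an array was 5.84 to 5.92, and arrays of a group correlated at 0.987 to 0.993. Signal over background is unknown, and precision is limited by how many arrays there are.

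Of 72688 features, 30638 carried 1 gene symbol, 2176 several and 39874 were not listed in the platform annotation. For 354 genes with more than 1 feature the brightest was taken, which left 30176 genes, and each member had 1 such feature. Promoter sequences are from RefSeq (GRCm38.p6).

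Hypoxia was compared with normoxia in limma 3.58.1 (R 4.3.3; lmFit, eBayes) with the culture as a fixed block, p-values adjusted by Benjamini-Hochberg over all genes, and 0.05 as threshold. The labels give both arrays of a pair the same culture number. As a check, deviations from the group mean had a correlation of 0.57, 0.40 and 0.22 between the arrays of cultures 3, 4 and 6, and of -0.50 to 0.14 between arrays of different cultures. P-values thus rest on how evenly 3 cultures responded and on a variance that eBayes draws toward a value shared by all genes. For a gene with very even differences that shared value sets most of the standard error. The fit was tested on simulated data. Figures were drawn in matplotlib 3.10.9.

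The members, lists and tests were chosen with earlier results of these data known. Named genes are the 10 members, up to 8 called genes with the largest absolute difference per pathway list, and the 5 genes nearest to Egln3 and to Egln1. Alternatives were the block left out or random, each culture left out, median centring, quantile normalization, cyclic loess, a filter on low intensity, array weights, a variance trend and the mean over features.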

Additional observations from a re-analysis of the deposited data

How the results depend on the processing

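Egln1 and Egln3 were called in all 12 alternatives, with log2 differences of 1.72 to 1.83 and 3.27 to 3.37 and adjusted p-values from limma of at most 0.0317 and 0.0133. With the pairing by culture ignored (no block), 63 genes were higher and 5 lower, against 127 and 35 with the block, and no call among the members changed. Counts of higher and lower genes were 80 and 19 after median centring, 196 and 103 after dim genes were removed, 249 and 144 with array weights, and 221 and 121 with a variance trend and robust fit, and 17 genes were lower after cyclic loess. With each culture left out in turn, 17 to 135 genes were higher and 1 to 94 lower. Vhl was called in 2 of 12 alternatives, with the trend and robust fit (0.52, adjusted p = 0.0496 from limma) and without culture 4 (range over cultures left out 0.41 to 0.61). Egln2 was called in 0 of 12 alternatives, and its sign turned in 1 of them, without culture 6. Its log2 differences were -0.0095 to 0.090 when a culture was left out, and at most 0.11 over all alternatives. The other 6 members were called in 0 of 12 alternatives and kept their sign. Hif1a ran from -0.31 (without culture 3) to -0.13 (without culture 6), against -0.24 with all cultures. The cause of these shifts was not tested. With the block, leaving out either array of a culture gives the same fit as leaving out both. No member had another feature with its symbol alone, so no feature could be put in its place, and the mean over features could not move a member's difference. Groups of 3 arrays are too small to test for an outlying array.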
